A study of Mus musculus with 3 samples.

Results

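The aryl hydrocarbon receptor (AHR) and the genes of its core pathway were followed across 3 RNA-seq libraries of C2C12 myotubes. C2C12 is a mouse myoblast line whose cells fuse into muscle fibres in low serum. The 7 genes were taken by symbol from the authors' gene table of 24401 loci: Ahr, its partner Arnt, its repressor Ahrr, and the target genes Cyp1a1, Cyp1b1, Tiparp and Nqo1. Each symbol had 1 locus. The resveratrol culture received medium conditioned for 24 hours by S2-013 cells, a human pancreatic cancer line, with 50 µM resveratrol added. The conditioned media culture received that kind of medium without resveratrol, and the control culture received DMEM. All myotubes had first been differentiated for 72 hours in DMEM holding 2% horse serum plus insulin at 1 µg/ml, and stayed in their treatment medium for 24 hours. Each group held 1 library from 1 cell line, so the differences below have no replicate check and carry no SD, interval or p-value computed here. The labels name no solvent for resveratrol, and resveratrol without conditioned medium was not analysed here.

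AHR is a transcription factor that rests in the cytosol with HSP90 chaperones. When it binds a ligand, such as a dioxin, a plant compound or a tryptophan metabolite, it enters the nucleus, pairs with ARNT and binds DNA at xenobiotic response elements, whose core is GCGTG. The cytochrome P450 genes Cyp1a1 and Cyp1b1 are its classic targets, and the targets Ahrr and Tiparp encode proteins that restrain AHR in turn. Resveratrol, a plant polyphenol, is known from other cell systems as an AHR antagonist, and the human CYP1B1 enzyme can hydroxylate it.

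The sequences of Cyp1b1 and Tiparp are shown because these AHR targets had log2 ratios of opposite sign with resveratrol, and that of Cyp1a1 because this best known target was at or near 0 in every library. Each is the RefSeq window (GRCm38.p6, the build also called mm10) from 250 bases before to 50 bases after the start site, in the direction of the gene, with the core GCGTG, or its reverse complement CACGC, in capitals. The Cyp1b1 window lies at chr17:79715012-79715311 on the minus strand, the Tiparp window at chr3:65528197-65528496 on the plus strand and the Cyp1a1 window at chr9:57697363-57697662 on the plus strand.
Cyp1b1: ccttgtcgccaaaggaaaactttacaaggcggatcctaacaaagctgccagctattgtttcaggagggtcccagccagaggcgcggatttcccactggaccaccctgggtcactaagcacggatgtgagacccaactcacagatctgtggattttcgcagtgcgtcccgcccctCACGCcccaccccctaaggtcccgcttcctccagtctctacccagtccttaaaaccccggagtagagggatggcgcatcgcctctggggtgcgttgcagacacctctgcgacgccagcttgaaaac
Tiparp: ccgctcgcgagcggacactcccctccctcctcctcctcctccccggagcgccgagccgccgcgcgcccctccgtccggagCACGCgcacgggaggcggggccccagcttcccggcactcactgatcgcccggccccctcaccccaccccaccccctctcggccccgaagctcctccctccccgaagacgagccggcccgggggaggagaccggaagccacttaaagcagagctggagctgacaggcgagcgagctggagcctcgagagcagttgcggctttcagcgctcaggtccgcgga
Cyp1a1: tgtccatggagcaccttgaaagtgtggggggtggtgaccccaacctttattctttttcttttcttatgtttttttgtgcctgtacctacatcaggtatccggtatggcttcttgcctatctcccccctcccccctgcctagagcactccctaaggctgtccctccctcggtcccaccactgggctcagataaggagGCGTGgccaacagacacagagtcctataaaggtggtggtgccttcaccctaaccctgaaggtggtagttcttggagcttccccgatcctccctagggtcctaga

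A window was found for 6 of the 7 genes, and 5 of the 6 held the core GCGTG on either strand. The core was also in 32.4% of all 32851 promoter windows of this length. Ahrr held it 3 times, at 107, 82 and 27 bases before the start site, and the match nearest the start was also a match to the longer motif TNGCGTG. In Cyp1b1, Tiparp, Cyp1a1 and Arnt it occurred once, with the first base 76, 170, 54 and 29 bases before the start. Nqo1 held no GCGTG in its window. The longer motif TNGCGTG, which contains the core, was in 5.07% of all windows. The core of the antioxidant response element, the site of the stress factor NRF2, was searched as TGACNNNGC on both strands. It occurred in the Arnt window, where it was found 2 times, in none of the other 5, and in 12.4% of all windows. These matches describe letters in a short window, and binding at them was not tested. Sequence farther from the start sites was not searched.

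**Figure D1:**
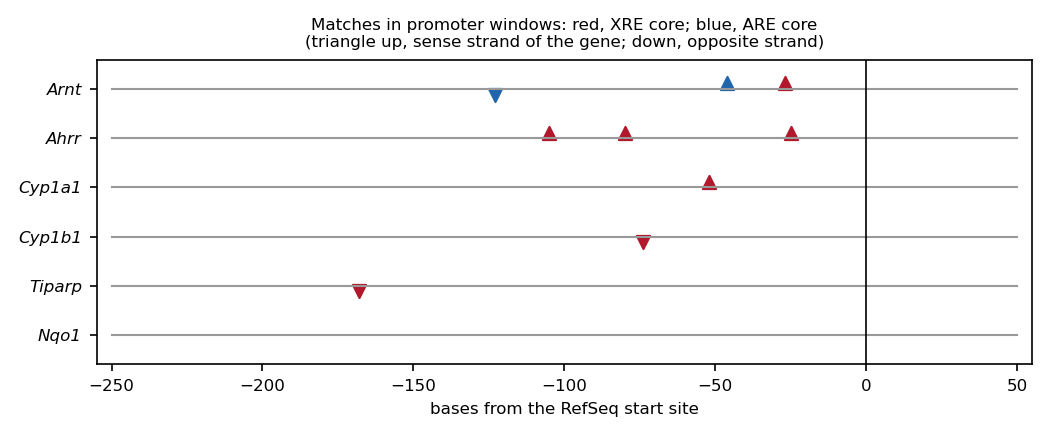
Matches in the 300-base promoter windows of 6 genes, by distance in bases from the RefSeq start site on the horizontal axis. Red triangles mark the xenobiotic response element (XRE) core and blue triangles the antioxidant response element (ARE) core, pointing up for the gene's own strand and down for the opposite strand, and Ahrr holds 3 red marks while Nqo1 holds none.

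Expression is given as FPKM, the authors' fragments scaled to transcript length and to library size, by a library scaling that is not given. Scaling to length allows levels to be compared between genes. Differences are log2 ratios of FPKM + 1, which understate the change of low genes. The size rule used below takes a gene as higher or lower when its log2 ratio is at least 1 in size and its mean over the 3 libraries at least 1 FPKM. Of 24401 loci, 11858 reached that mean, and so did 5 of the 7 genes, all but Ahrr and Cyp1a1. The table gives no read totals, so the counting error behind an FPKM value is unknown. The authors' deposited table calls 25.8% to 34.1% of its tested loci in each direction, on p-values that compare single libraries, so its calls are set beside that share.

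Cyp1b1, a P450 that oxidises steroids and polycyclic aromatic compounds and is known from mesenchymal cells, held the clearest difference. It stood at 5.34 FPKM with resveratrol, at 30.4 FPKM in conditioned media alone and at 25.4 FPKM in control. The resveratrol library was the low one and the other 2 lay close together. Its FPKM was 5.69-fold lower with resveratrol than in conditioned media (log2 ratio -2.31), and 4.76-fold lower than in control (log2 ratio -2.06). Among the 11858 loci, 28 had a lower ratio of resveratrol to conditioned media, and 53 a lower ratio of resveratrol to control. In the authors' deposited table the log2 fold change over conditioned media was -2.51, with a q-value of 0.000148. Dividing that fold change by the authors' test statistic gives a standard error of 0.18 on the log2 scale, if the statistic is such a quotient, and this error does not cover the spread between cultures. Its locus spans chromosome 17, positions 79706953 to 79715087, and GENCODE places the gene on the minus strand at 79701537 to 79715061 with no other gene over it.

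The share of cells that express Cyp1b1 and the amount of its RNA per cell cannot be told apart in these bulk libraries. Markers of other mesenchymal and precursor cells moved in the same comparison. Of 5 fibroblast markers, all measured, 3 had a mean of 1 FPKM or more and all 3 ratios of resveratrol to conditioned media were below 0. Their summed level over the 5 was 578 FPKM with resveratrol, 1116 FPKM in conditioned media and 932 FPKM in control. Of these sums Col1a1, the collagen I chain, made up 527, 1056 and 899 FPKM. For resveratrol over control 2 of the 3 ratios were above 0, and that of Col1a1 was below. Dcn stood at 43.6 FPKM with resveratrol against 27.8 FPKM in control, and Pdgfra at 6.98 FPKM against 4.98 FPKM. The fibroblast marker Thy1 was below 0.1 FPKM in each library. Of 6 myoblast and reserve cell markers, 5 had the mean of 1 FPKM. By the size rule 2 of them were lower with resveratrol than in conditioned media, beside 4.97% of all loci past the filter. These were Myf5, at 2.69 FPKM with resveratrol against 9.23 FPKM in conditioned media, and Notch3, at 12.1 FPKM against 25.7 FPKM. Vcam1, at 78.0 FPKM against 49.2 FPKM, and Sdc4, at 174 FPKM against 117 FPKM, had ratios above 0. The authors' deposited table calls 2 of the 5 higher and 3 lower, beside 34.1% and 29.5% of all its tested loci. The summed level of the 6 markers was 325 FPKM with resveratrol, the highest, 267 FPKM in conditioned media and 209 FPKM in control. The part of these cells in the Cyp1b1 result was not tested.

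The myotube label held in each library: all 7 of 10 listed myotube markers with a locus of their own symbol, among them Acta1, Des, Myog and Tnnt3, lay at or above 19.9 FPKM with resveratrol, 7.17 FPKM in conditioned media and 6.40 FPKM in control, although the cell type is given as myoblast. Their summed level was 4243, 2844 and 2997 FPKM in that order, of which Acta1 made up 2272.5, 1496 and 1568 FPKM. For resveratrol over conditioned media 6 of the 7 ratios were above 0 and 1 was below. That was Ckm, at 43.2, 56.3 and 60.8 FPKM. Of 21 markers of adipocytes, macrophages, endothelium, epithelium and liver, 8, 7 and 9 were listed at 0, and the highest in any library was 2.74 FPKM. Over all loci the median log2 ratio was 0.025 for resveratrol over conditioned media and -0.011 for conditioned media over control. Rescaling to equal sums over all loci (TPM) follows loci of 200 bases or less, which hold 78.4% to 83.0% of the FPKM sums, and moved the second median to 0.14 and the first to 0.020.

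**Figure D2:**
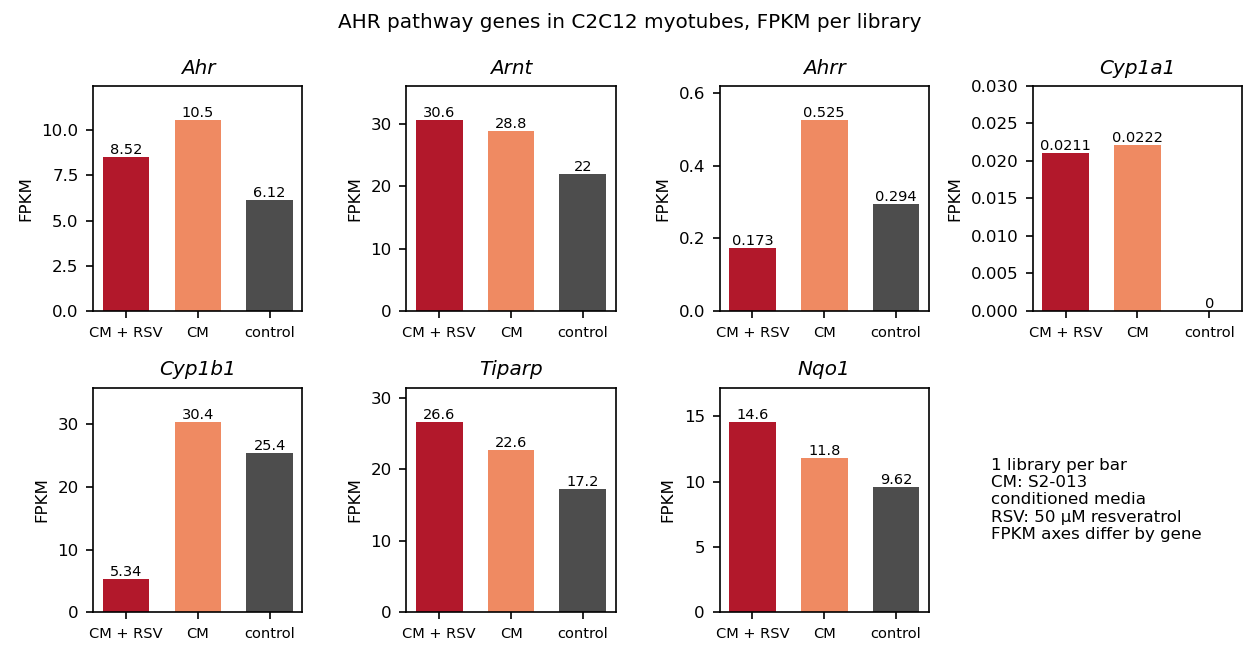
FPKM of the 7 genes, 1 panel each with its own axis from 0, and 1 bar per library: conditioned media with resveratrol (CM + RSV), conditioned media (CM) and control. Cyp1b1 is low with resveratrol at 5.34 FPKM, while Arnt, Tiparp and Nqo1 are highest there at 30.6, 26.6 and 14.6 FPKM.

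Tiparp did not share the low value of Cyp1b1. It encodes a mono-ADP-ribosyl transferase of the PARP family that modifies AHR and dampens it. Tiparp stood at 26.6 FPKM with resveratrol, 22.6 FPKM in conditioned media and 17.2 FPKM in control. The resveratrol library was the highest and control the lowest. Its log2 ratio of 0.23 over conditioned media and 0.60 over control stayed under the size rule, and the authors' deposited table calls both higher, each with a q-value of 0.000148. Between Cyp1b1 and Tiparp the log2 ratios over conditioned media thus had opposite signs; the difference between genes has no test here. The Tiparp locus spans chromosome 3, positions 65527485 to 65555518, and also holds 4931440P22Rik, a transcribed pseudogene on the opposite strand that overlaps its start. That pseudogene stood at 0.582, 0.472 and 0.163 FPKM in the same order of libraries, and the labels do not say whether counting used strand.

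Nqo1 encodes a quinone reductase and is a target of both AHR and NRF2. It stood at 14.6 FPKM with resveratrol, 11.8 FPKM in conditioned media and 9.62 FPKM in control. The order of the libraries matched that of Tiparp, with log2 ratios of 0.28 over conditioned media and 0.55 over control for resveratrol, both under the size rule. In the authors' deposited table the difference from conditioned media is not called (q = 0.194), and that from control is called higher (q = 0.0124). The standard error implied by the authors' fold changes and statistics was 0.40 to 0.43 on the log2 scale for Nqo1, against 0.094 to 0.18 for the other 4 tested genes. Its locus was drawn over chromosome 8, positions 107256164 to 107559033, a span given to 6 loci, although GENCODE places Nqo1 itself at 107388225 to 107403206 on the minus strand. Of the others in that span, Nfat5 stood at 13.4, 21.8 and 30.0 FPKM and Wwp2 at 11.9, 20.0 and 17.9 FPKM in the same order, and both are on the plus strand. Nob1, on the minus strand, stood at 14.9, 12.7 and 14.2 FPKM.

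Cyp1a1, the most inducible AHR target in many cell types, was listed at 0 in control and stood at 0.0211 FPKM with resveratrol and 0.0222 FPKM in conditioned media. The authors' deposited table did not test it, and no fold change is given here. Ahrr, which competes with AHR for ARNT, stood at 0.173 FPKM with resveratrol, 0.525 FPKM in conditioned media and 0.294 FPKM in control. It too was below 1 FPKM in each library and was not tested by the authors, so the order of its values is not read further.

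The receptor gene Ahr stood at 8.52 FPKM with resveratrol, 10.5 FPKM in conditioned media and 6.12 FPKM in control. Conditioned media gave the highest level and control the lowest. Its ratio of conditioned media to control was the largest of the 5 genes past the filter (log2 ratio 0.70), and 4.94% of all loci past the filter had a larger one. With resveratrol the log2 ratio was -0.28 over conditioned media and 0.42 over control. All 3 comparisons of Ahr are called in the authors' deposited table, with log2 fold changes of -0.31 for resveratrol over conditioned media, 0.48 for resveratrol over control and 0.79 for conditioned media over control. The gene lies on the minus strand of chromosome 12, with its locus at 35497979 to 35534989, and the noncoding gene Gm48236 overlaps its start on the opposite strand.

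Arnt encodes the partner that AHR shares with the hypoxia-inducible factors. It stood at 30.6 FPKM with resveratrol, 28.8 FPKM in conditioned media and 22.0 FPKM in control. The libraries with conditioned media lay close together and above control. The log2 ratios were 0.083 for resveratrol over conditioned media and 0.46 for resveratrol over control, and 0.37 for conditioned media over control. For the first the authors' deposited table makes no call (q = 0.105). Its locus spans chromosome 3, positions 95434390 to 95497239. The processed pseudogene Gm42672 lies within it on the same strand, at 95461191 to 95461542.

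Taken by level, Cyp1b1 led the 7 genes in conditioned media and in control, followed by Arnt, Tiparp, Nqo1, Ahr, Ahrr and Cyp1a1. With resveratrol the order was Arnt, Tiparp, Nqo1, Ahr, Cyp1b1, Ahrr and Cyp1a1, so Cyp1b1 stood below Ahr there and the other 6 kept their order among themselves. Which neighbours differ beyond their spread cannot be said with 1 library per group.

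For resveratrol over conditioned media, the 5 genes past the filter gave 1 lower by the size rule, Cyp1b1, and 0 higher. Across all 11858 loci 4.97% were lower by that rule and 1.53% higher. The authors' deposited table calls 1 of the 5 higher, Tiparp, and 2 lower, Cyp1b1 and Ahr, beside 34.1% higher and 29.5% lower among its 11033 tested loci. The median log2 ratio of the 5 genes was 0.083, beside 0.025 over all loci, with 3 ratios above 0 and 2 below.

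Against control, the resveratrol library again had 1 gene lower by the size rule, Cyp1b1, and 0 higher, where the rule took 5.25% of all loci lower and 3.60% higher. All 5 are called in the authors' deposited table, 4 higher and Cyp1b1 lower, beside 34.1% higher and 34.1% lower among its 10939 tested loci. The median of the 5 log2 ratios was 0.46, beside 0.00021 over all loci. This comparison shares its libraries with the other 2 and is not a separate line of evidence.

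For conditioned media over control all 5 ratios lay above 0, between 0.25 for Cyp1b1 and 0.70 for Ahr, and 0 passed the size rule. The rule took 1.98% of all loci as higher and 0.751% as lower. The authors' deposited table calls 4 of the 5 higher, all but Nqo1 (q = 0.215), and 0 lower, beside 25.8% higher and 29.9% lower among its 10982 tested loci. The median of 0.37 stood beside -0.011 over all loci. With TPM, where all loci had a median of 0.14, that of the 5 genes was 0.51.

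**Figure D3:**
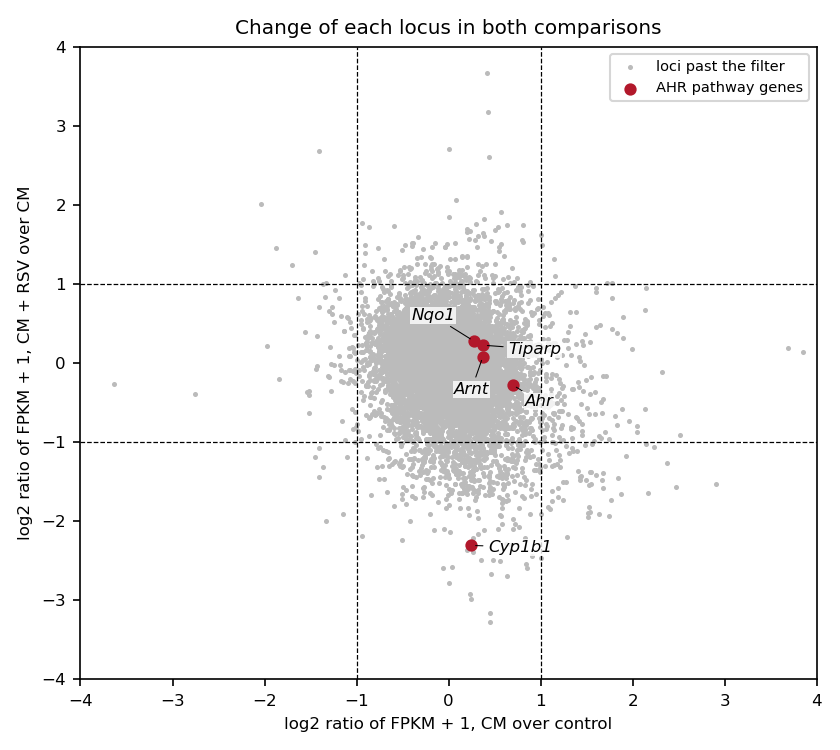
Log2 ratios of FPKM + 1 for conditioned media over control (horizontal) and for resveratrol over conditioned media (vertical), with 11858 loci in grey, of which 22 lie outside the axes, and the 5 genes past the filter in red. Dashed lines mark ratios of -1 and 1; Cyp1b1 lies at 0.25 and -2.31 and the other 4 genes lie inside the lines. Both axes use the conditioned media library.

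The genes whose pair of ratios lay nearest to that of Cyp1b1 were Has2, Fam64a and Kif22, at distances of 0.023, 0.076 and 0.081 log2 units. Has2, a hyaluronan synthase, stood at 7.35 FPKM with resveratrol, 39.9 FPKM in conditioned media and 33.0 FPKM in control. Kif22, a mitotic kinesin, stood at 1.32, 11.1 and 9.07 FPKM, and Fam64a at 2.46, 16.9 and 14.5 FPKM. Within 0.1 log2 units lay 4 of 10680 genes for Cyp1b1, against 27 for Ahr, 124 for Tiparp, 151 for Arnt and 187 for Nqo1. Nearest to Ahr were Agbl3, Zdhhc24 and Dennd4b, to Arnt Lin37, Atf7ip and Supt3, to Tiparp Mpnd, Pdzd11 and Pts, and to Nqo1 Ccsap, Eci2 and Mynn. The likeness rests on 3 libraries and so on 2 ratios per gene.

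Other known AHR target genes had ratios on both sides of 0. Of 18 listed, 16 were measured and 10 passed the filter. Among these, 1 was higher with resveratrol than in conditioned media by the size rule and 1 lower, beside 1.53% and 4.97% of all loci. Fgf21, a stress hormone of liver and muscle, was the lower one, at 9.54 FPKM with resveratrol, 42.2 FPKM in conditioned media and 28.0 FPKM in control (log2 ratio -2.04 over conditioned media). Ptgs2, cyclooxygenase 2, was the higher one, at 113, 32.6 and 26.4 FPKM (log2 ratio 1.76). Hes1, a Notch target as well, passed the rule only over control, at 14.4 FPKM with resveratrol against 33.9 FPKM there, with 25.5 FPKM in conditioned media. Cyp1a2, the liver P450 next to Cyp1a1, and Il22 were listed at 0 in every library. The median log2 ratio of the 10 was -0.13 for resveratrol over conditioned media and 0.29 for conditioned media over control. The authors' deposited table calls 3 of the 10 higher and 5 lower in the first comparison, beside 34.1% and 29.5% of all its tested loci.

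The chaperones and partners of AHR held 15 listed genes, all measured and 9 past the filter, and 0 passed the size rule in any comparison. The rule took 0.751% to 5.25% of all loci, by direction and comparison. The HSP90 gene Hsp90ab1 stood at 920 FPKM with resveratrol, 894 FPKM in conditioned media and 870 FPKM in control. Hif1a, which competes for ARNT, stood at 103, 131 and 89.5 FPKM in that order. By the largest ratio the list was led by Arntl2, a clock gene of the same protein family, at 1.78, 3.61 and 1.57 FPKM, and by Arnt2, the ARNT paralog, at 1.72, 2.96 and 2.12 FPKM. Of 15 coregulators 13 were measured and past the filter, and 0 passed the size rule in any comparison, beside those same shares. Nrip1, a corepressor, stood at 8.82, 5.14 and 4.34 FPKM. The medians for resveratrol over conditioned media were -0.077 for the chaperones and partners and 0.078 for the coregulators, beside 0.025 over all loci. In that comparison the authors' deposited table calls 2 of the 9 chaperones and partners higher and 5 lower. Of the 13 coregulators it calls 3 higher and 3 lower. Over all its tested loci it calls 34.1% higher and 29.5% lower.

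Kynurenine, a tryptophan metabolite, is an AHR ligand. Of 18 listed tryptophan and kynurenine genes 15 were measured and 6 passed the filter. Ido1, which opens the pathway in immune and other cells, stood at 0.153 FPKM with resveratrol, 0.0865 FPKM in conditioned media and 0.113 FPKM in control, and Tdo2, its liver counterpart, was at 0 with resveratrol and in control and at 0.0465 FPKM in conditioned media. Among the 6 past the filter 0 passed the size rule, which took 0.751% to 5.25% of all loci by direction and comparison. Ccbl2, a kynurenine aminotransferase, stood at 2.98, 1.03 and 1.03 FPKM and Aldh2, an aldehyde dehydrogenase, at 108, 70.5 and 55.3 FPKM. The median log2 ratio of the 6 was 0.23 for resveratrol over conditioned media, with 4 ratios above 0 and 2 below. It was 0.72 for resveratrol over control and 0.42 for conditioned media over control, with all 6 ratios above 0 in each of these, which share the control library. The authors' deposited table calls 6 of 6 higher over control with resveratrol, beside 34.1% of all its tested loci, and 5 of 5 tested in conditioned media, beside 25.8%.

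NRF2 also controls Nqo1, and 18 of 19 listed NRF2 genes were measured and past the filter. For resveratrol over conditioned media 12 had ratios above 0 and 6 below, with a median of 0.16. By the size rule 1 was higher, beside 1.53% of all loci, and 0 lower, beside 4.97%. The higher one was Gclc, which makes the glutathione precursor, at 17.7 FPKM with resveratrol, 7.28 FPKM in conditioned media and 10.9 FPKM in control. The authors' deposited table calls 10 of the 18 higher and 5 lower, beside 34.1% and 29.5% of all its tested loci. Nfe2l2, which encodes NRF2 and is also in the AHR target list, stood at 74.0, 64.6 and 49.7 FPKM, and Nqo2, the relative of Nqo1, at 8.21, 14.5 and 11.7 FPKM. Nqo1 and Nqo2 thus had ratios of opposite sign for resveratrol over conditioned media.

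**Figure D4:**
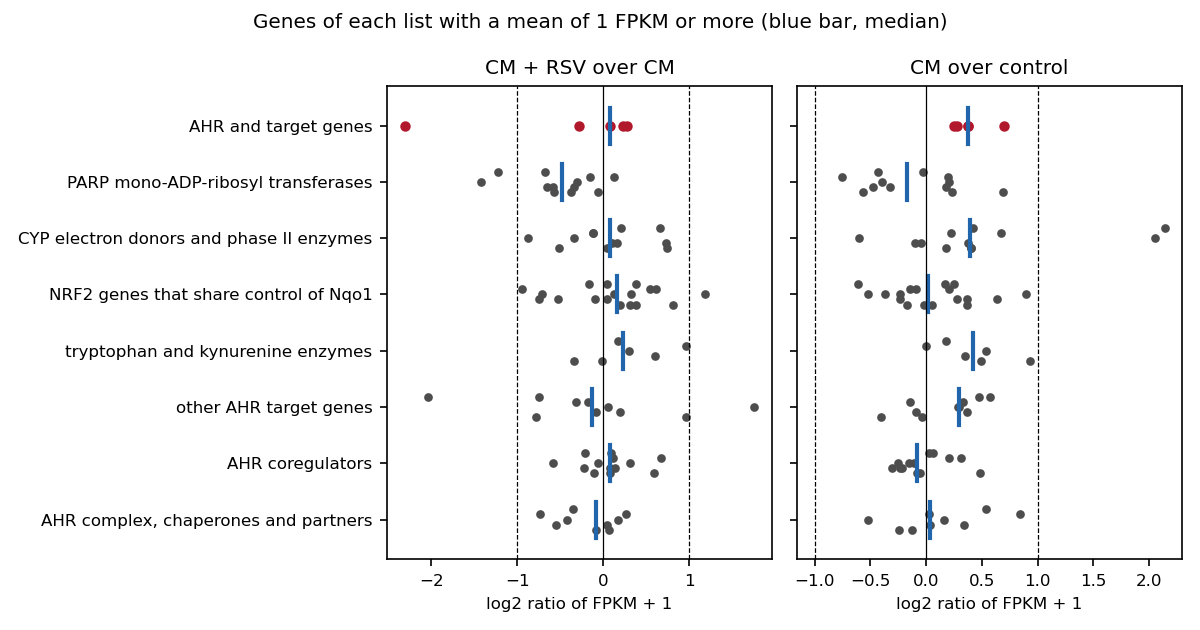
Log2 ratios of FPKM + 1 for each gene of 7 lists and of the AHR genes with a mean of 1 FPKM or more, for resveratrol over conditioned media (left) and conditioned media over control (right). Each point is a gene, the blue bar is the list's median and dashed lines mark -1 and 1; the lowest point on the left is Cyp1b1 at -2.31, next to it Fgf21 at -2.04.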

How the data were processed

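RNA was sequenced from 3 cultures of differentiated C2C12 cells, grouped by their treatment labels. Per the submitters' processing notes, the tools were Cuffdiff 2.2.1.3, Cufflinks 2.2.1.0, TopHat2 2.1.0 and Bowtie, on mm10, with Trim Galore 0.4.3.1 and FastQC 0.69. Per the file headers, the deposited table is Cuffdiff's gene output with the authors' FPKM per library and, per comparison, their log2 fold change without a pseudocount, a test statistic (a score), p-value and q-value. FPKM of a locus were the same in each comparison. The annotation used, the use of strand and the scaling of libraries are not given there. No read totals are known: steps of whole reads were searched among 1823 loci of low FPKM, and the most frequent ratio was shared by 3.

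Log2 ratios of FPKM + 1, the size rule and list medians were computed with Python 3.11.15 and pandas 2.3.3. Starts were converted to 1-based positions, and gene models came from GENCODE M21 on the same build. The 7 genes, 7 lists and markers were chosen with earlier results of these data known. The text names the 7 genes, list genes past the size rule in any comparison (at most 6 a list, otherwise the 2 with the largest ratio), and the 3 genes nearest to each by the 2 ratios; other list genes and markers were named after their values were seen. A gene that this rule names is not reported here. Alternatives were pseudocounts of 0.1 and 5, rescaling to TPM or over loci above 200 bases, centring, other filters, sums over loci and the authors' fold change.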

Additional observations from a re-analysis of the deposited data

How the results depend on the processing

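All 145 recomputed log2 ratios of the 7 genes kept their sign, and the size rule took the same counts of them in each comparison. A changed pseudocount, the authors' fold change and sums over loci could not turn a sign. Only rescaling and centring could have done so. The 145 include ratios of Ahrr and Cyp1a1, which lay below the filter. Cyp1b1 ranged from -2.51 to -1.78 for resveratrol over conditioned media and from -2.25 to -1.56 over control. Of all loci, the rule took 771 for resveratrol over conditioned media, against 1183 and 243 at pseudocounts of 0.1 and 5, 373 with TPM and 493 at a mean of 5 FPKM or more. For resveratrol over control it took 1049, against 390 at the pseudocount of 5 and 573 with TPM, and for conditioned media over control 324, against 599 and 94 at pseudocounts of 0.1 and 5, 176 with TPM and 188 at the higher mean. The share higher among these was 72.5% for conditioned media over control, against 59.6% at the pseudocount of 5 and 83.0% with TPM, and 40.7% for resveratrol over control, against 61.8% with TPM and 26.6% when rescaled over loci above 200 bases. Of list genes, 5 passed for resveratrol over conditioned media, against 8 and 2 at pseudocounts of 0.1 and 5, and 2 for conditioned media over control, against 4 at the pseudocount of 0.1. Of 147 recomputed list medians 12 turned sign or became 0. With TPM the FPKM sums of 2.95e+06 to 3.38e+06 became 1e+06 while the pseudocount stayed at 1, so that pseudocount weighed more. Without a pseudocount, TPM moved each log2 ratio of resveratrol to conditioned media by -0.0014. Other causes of these shifts were not tested. No paired analysis was possible because each group held 1 library, and unknown depth limits all low values.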

Other observations

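Enzymes that act beside or after the P450s were listed with 18 electron donors and phase II enzymes, of which 16 were measured and 12 passed the filter. For resveratrol over conditioned media 0 passed the size rule, where it took 1.53% of all loci higher and 4.97% lower. The median log2 ratio was 0.075, beside 0.025 over all loci. For resveratrol over control 3 were higher and 0 lower, where the rule took 3.60% of all loci higher and 5.25% lower. The median was 0.51, beside 0.00021 over all loci. For conditioned media over control 2 were higher and 0 lower, where the rule took 1.98% of all loci higher and 0.751% lower. The median was 0.39, beside -0.011 over all loci. The authors' deposited table calls 5 higher and 4 lower in the first of these comparisons, beside 34.1% and 29.5% of all its tested loci, and 9 higher and 1 lower in the last, beside 25.8% and 29.9%. Mgst2, a microsomal glutathione transferase, stood at 14.5 FPKM with resveratrol, 8.79 FPKM in conditioned media and 1.22 FPKM in control, and Gstt1, a cytosolic one, at 4.65, 9.35 and 1.49 FPKM. Gstm1 passed the rule for resveratrol over control, at 59.7 FPKM against 26.4 FPKM, with 35.3 FPKM in conditioned media. Por, the reductase that passes electrons to P450s such as CYP1B1, stood at 38.3 FPKM with resveratrol, 22.7 FPKM in conditioned media and 24.3 FPKM in control, so its ratio and that of Cyp1b1 had opposite signs.

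Listed PARP relatives of Tiparp, with macrodomain genes, lay mostly on the lower side with resveratrol. Of 13 listed mono-ADP-ribosyl transferase and macrodomain genes 12 passed the filter, 11 had ratios below 0 over conditioned media and 2 were lower by the size rule, which took 4.97% of all loci as lower. The median was -0.47 beside 0.025 over all loci. Parp11 stood at 2.64 FPKM with resveratrol, 8.76 FPKM in conditioned media and 11.8 FPKM in control, and Parp14 at 8.82, 21.9 and 29.9 FPKM. Parp9 and Parp10, like Parp14 known as interferon-induced genes, stood at 17.0, 25.7 and 38.5 FPKM and at 18.0, 28.9 and 40.5 FPKM. The authors' deposited table calls 10 of the 12 lower and 0 higher, beside 29.5% lower and 34.1% higher over all its tested loci. Tiparp, with a log2 ratio of 0.23, lay on the other side of 0. For conditioned media over control the list's median was -0.18, beside -0.011 over all loci, with 5 ratios above 0 and 7 below. There the authors' deposited table calls 3 of the 12 higher and 6 lower, beside 25.8% and 29.9% of all its tested loci.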
